A study of Mus musculus with 2 samples.

Results

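The 32 genes described here encode the enzymes of glycolysis, the carriers and enzymes that handle pyruvate and lactate, and the enzymes of the pentose phosphate pathway, together with Bnip3. They were chosen by name, from a fixed list of symbols, out of 43309 nuclear mouse genes, with earlier results of these data known. Each of the 32 symbols matched 1 gene. Their levels were read in 2 RNA-seq libraries from the hindbrain of newborn mice, one from pup 1 and one from pup 3, both of strain B6NCrl at postnatal day 0 and with no treatment or mutation in the labels. Each library started from 13 pg of total RNA from a single hindbrain, an amount the labels call 1 cell-equivalent. RNA was extracted with the mirVana kit, and fragments above 200 nt were kept. The sample descriptions say total RNA-seq, while the labels link a Smart-seq protocol, in which polyadenylated RNA is copied and amplified from very small inputs. Which classes of RNA were captured is therefore not settled here. The RNA came from tissue of mixed cell types, although the assay is also called single-cell RNA-seq. Fewer cells of a type and less RNA per cell thus cannot be told apart. The labels list 1 donor record for both pups and do not record their sex. Each library also started from 13 pg of RNA, so the spread between the libraries may be partly technical. Technical spread and differences between animals cannot be told apart here. With 1 group of 2 libraries no test between conditions exists, and all differences below are descriptions of 2 libraries.

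Glycolysis splits glucose into pyruvate in the cytosol and yields ATP and NADH. Hexokinase, phosphofructokinase and pyruvate kinase catalyse its practically irreversible steps, and tissues differ in which isozyme serves them. Pyruvate is either reduced to lactate by lactate dehydrogenase, which regenerates NAD, or carried into mitochondria and oxidised by the pyruvate dehydrogenase complex. The pentose phosphate pathway branches off at glucose 6-phosphate and supplies NADPH and ribose. In the brain glucose is the main fuel, although the suckling brain also uses lactate and ketone bodies, which enter through monocarboxylate transporters. Pyruvate kinase M is made in an M1 form, typical of mature neurons and muscle, and an M2 form, typical of embryonic and dividing cells. The forms differ by a pair of mutually exclusive exons of the Pkm gene.

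These exons carry the main isoform result, so both are shown, 5′ to 3′, as the reference gives them. Both lie on the plus strand of chromosome 9 of GRCm38, the M1 exon at chr9:59675029-59675195 and the M2 exon at chr9:59675568-59675734. Both are 167 nt long. Capitals mark the 64 positions at which the aligned exons differ, and the other 103 positions are identical.
Pkm M1 exon: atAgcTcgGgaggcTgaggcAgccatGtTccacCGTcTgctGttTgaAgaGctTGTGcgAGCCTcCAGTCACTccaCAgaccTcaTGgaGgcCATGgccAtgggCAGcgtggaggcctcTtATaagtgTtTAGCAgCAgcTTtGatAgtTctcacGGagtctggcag
Pkm M2 exon: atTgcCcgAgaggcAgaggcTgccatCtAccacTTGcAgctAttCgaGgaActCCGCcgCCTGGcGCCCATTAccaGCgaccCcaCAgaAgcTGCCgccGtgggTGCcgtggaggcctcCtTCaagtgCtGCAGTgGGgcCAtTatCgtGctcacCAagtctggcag
The aligned exons are 61.7% identical. Each lies in a transcript of 2432 nt in the deposited tables.

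The libraries held 33462210 (pup 1) and 28285749 (pup 3) expected counts on nuclear genes, that is, reads shared out among genes by a statistical model. Levels are given in TPM, a length-scaled measure of transcript abundance obtained by dividing counts by transcript length, and scaled to the same total over nuclear genes in each library. At this depth 3 counts on a 1000-nt transcript equal 0.145 TPM (pup 1) or 0.164 TPM (pup 3). Of 8 genes of hindbrain position 6 were detected in both pups (En2 and Hoxb2 had 0 counts in both), and all 6 forebrain genes had 0 counts in both. All 6 neuron markers were detected in both pups and summed to 7157 TPM (pup 1) and 4913 TPM (pup 3). Tubb3 and Stmn2 made up most of this sum and, with Rbfox3, were higher in pup 1. Map2, Elavl4 and Snap25 were higher in pup 3. Astrocyte and radial glia markers were detected in both for 5 of 6 and summed to 4045 and 3516 TPM. Red blood cell markers (4 of 6 in both) summed to 1486 and 3941 TPM, and meningeal markers (4 of 4) to 2484 and 4582 TPM, each sum higher in pup 3. The globin genes were higher in pup 3, while the red cell marker Alas2 had 909 counts in pup 1 and 0 counts in pup 3.

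Of the 32 genes, 28 were detected in both pups, with detection set at 5 expected counts. That is 87.5% of the list, against 37.8% of protein-coding genes and 20.6% of all nuclear genes, which include many of much lower level. Pdk1 was detected in pup 1 only, and Hk2, Slc16a3 and Pdk3 had 0 counts in both libraries. The list held 10567 TPM in pup 1 against 11050 TPM in pup 3, equal to 1.06% and 1.11% of all nuclear TPM. In each pup 11 of the 32 genes were among the 500 highest of 21461 protein-coding genes. The list was chosen with earlier results of these data known, so nothing is read from its share of detected genes or from these ranks. The median over the 32 genes was 173 TPM in pup 1 against 214 TPM in pup 3, and 18 genes reached 100 TPM in both pups. The plot of all 32 levels shows Aldoa, Gapdh, Eno1, Pkm, Ldha and Ldhb at the high end with both pups close together. The widest gaps were those of Slc16a1, G6pdx, Pdk1 and Pgd.

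**Figure D1:**
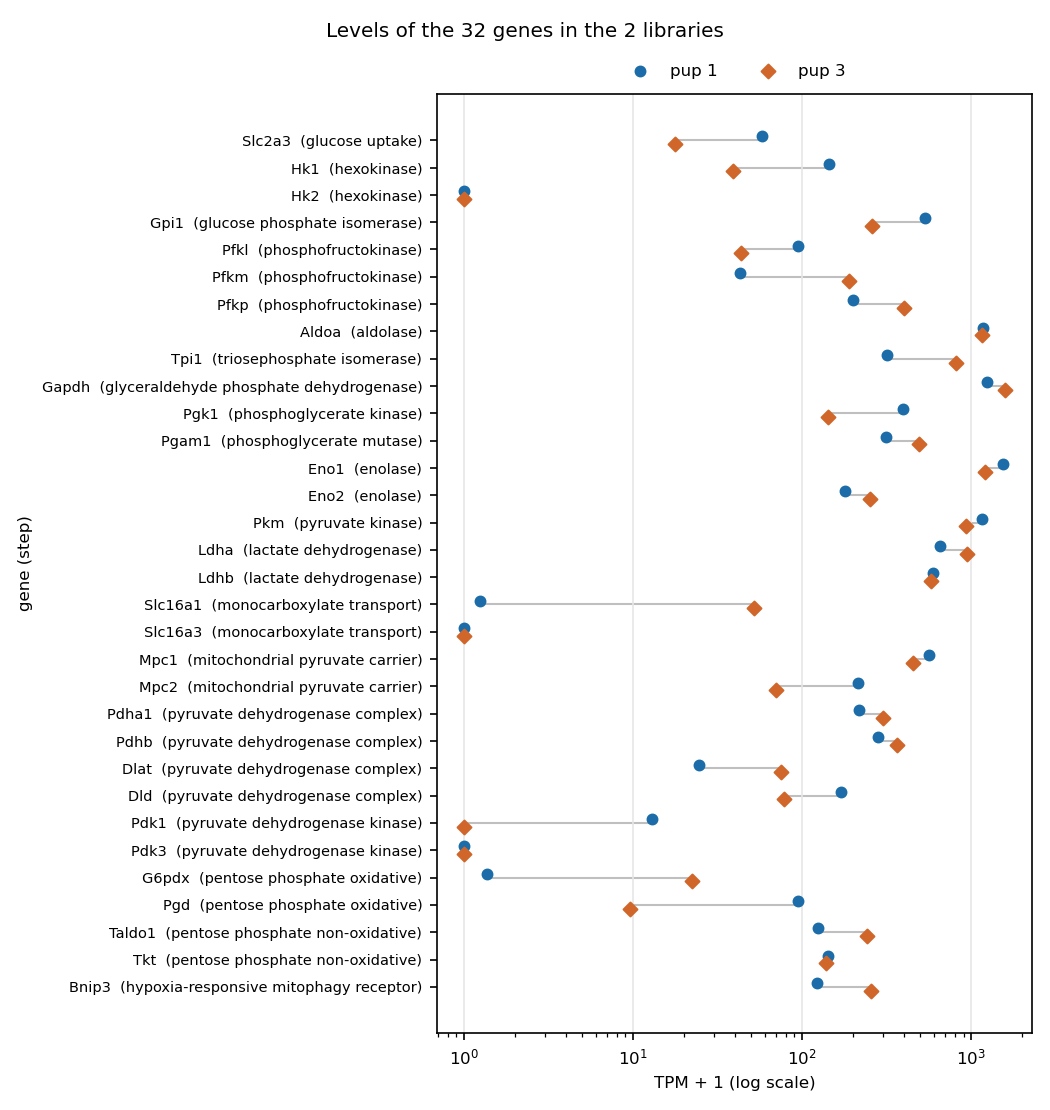
Level of each of the 32 genes (rows, with the step each serves) as TPM + 1 on a log axis, pup 1 as circles and pup 3 as diamonds, joined by a grey line. Aldoa, Gapdh, Eno1 and Pkm lie near 1000 TPM in both pups, Slc16a1, G6pdx, Pgd and Pdk1 show the widest gaps, and Hk2, Slc16a3 and Pdk3 lie at 0.

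Glucose transporter genes differed between the pups in amount and in order, and Hk1 differed in amount. Slc2a3 encodes GLUT3, the glucose transporter of neurons, and stood at 57.2 TPM in pup 1 against 16.7 TPM in pup 3. Slc2a1, which encodes the GLUT1 transporter of the blood-brain barrier and glia and is not on the list, stood at 20.7 TPM and 31.9 TPM. The order of these transporters was thus opposite in the pups. Another transporter gene outside the list, Slc2a6, held 0.226 TPM in pup 1 against 100 TPM in pup 3, where it took 61.8% of the TPM of the glucose transporter genes. Slc2a3 took 48.3% of that sum in pup 1 and 10.3% in pup 3.

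Hk1, the hexokinase of brain, stood at 142 TPM in pup 1 against 37.9 TPM in pup 3, 3.68-fold on the TPM + 1 scale, just inside the 4-fold limit used below. Hk2, the hexokinase linked to hypoxia and muscle, had 0 counts in both pups, which at a limit of 3 counts allows 0.0643 TPM (pup 1) or 0.0729 TPM (pup 3). Such limits, and all intervals below, cover counting error only, since amplified reads without molecular identifiers are not independent molecules. The leading Hk1 transcript took 63.4% of the gene's TPM in pup 1 and 96.4% in pup 3, and the next took 36.3% and 0.93%. Gpi1, which turns glucose 6-phosphate into fructose 6-phosphate, stood at 532 TPM in pup 1 against 259 TPM in pup 3.

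Phosphofructokinase, the main control point of glycolysis, is built from liver, muscle and platelet subunits, and all 3 genes were detected in both pups. Pfkl, the liver subunit, stood at 93.0 TPM in pup 1 against 42.3 TPM in pup 3. Pfkm, the muscle subunit, had 2414 counts and 42.0 TPM in pup 1 and 9517 counts and 189 TPM in pup 3. Pfkp, the platelet subunit, stood at 200 TPM and 397 TPM. Pup 1 thus ranked Pfkp, Pfkl and Pfkm, and pup 3 ranked Pfkp, Pfkm and Pfkl.

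The Pfkp level depended on which transcripts were counted. Transcripts annotated as retained introns, which hold intron sequence and encode no full protein, took nearly all of the 40.0% of Pfkp TPM outside protein-coding transcripts in pup 1 and all of the 96.8% in pup 3. On protein-coding transcripts alone Pfkp stood at 120 TPM in pup 1 against 12.7 TPM in pup 3, so its direction turned. Pfkm then took 16.5% of phosphofructokinase TPM in pup 1 and 77.7% in pup 3, in place of 12.5% and 30.1%. The plot of TPM outside protein-coding transcripts shows Pfkp beside the other genes with 5% or more there. Gapdh held 50.3% and 40.6%, mainly on a 483-nt processed transcript, and Eno2 held 23.1% and 29.6%. Mpc2 held 39.1% in pup 1 and 0.40% in pup 3.

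**Figure D2:**
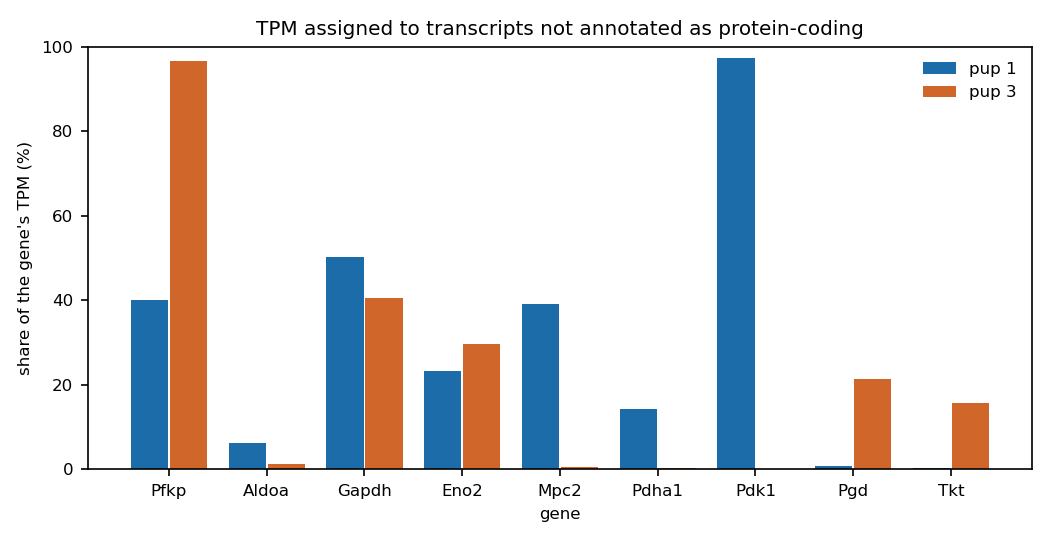
Share of each gene's TPM (vertical axis, percent) that fell on transcripts not annotated as protein-coding, in pup 1 and pup 3, for the genes with at least 5% in either pup. Pfkp reaches 96.8% in pup 3, Gapdh and Eno2 lie above 20% in both pups, and Pdk1 has a bar for pup 1 only because pup 3 had 0 counts of it.

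Counted over all transcripts, aldolase, enolase, glyceraldehyde phosphate dehydrogenase and lactate dehydrogenase were the steps with the highest summed levels. Aldolase genes summed to 1984 ± 93.3 TPM (SD, n = 2), enolase genes to 1641 ± 157 TPM, and glyceraldehyde phosphate dehydrogenase to 1411 ± 237 TPM. The steps between them were lower, with triosephosphate isomerase at 565 ± 354 TPM, phosphoglycerate mutase at 399 ± 123 TPM and phosphoglycerate kinase at 268 ± 180 TPM. Phosphofructokinase genes summed to 482 ± 208 TPM. In each pup aldolase thus held more transcripts than the regulated step just upstream of it.

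Aldoa, the widely expressed aldolase, stood at 1164 TPM in pup 1 against 1150 TPM in pup 3, and no detected gene on the list had a smaller relative difference. Aldoc, the brain aldolase, which is not on the list, stood at 886 TPM and 768 TPM, so Aldoa made up 56.8% of aldolase TPM in pup 1 and 60.0% in pup 3. Tpi1, which interconverts the triose phosphates, was among the steps with a wide gap, at 315 TPM in pup 1 against 816 TPM in pup 3. Gapdh, often used as a reference gene, stood at 1244 TPM and 1579 TPM. On protein-coding transcripts alone it stood at 618 TPM and 938 TPM, against 1150 TPM and 922 TPM for Pkm. Its step was then below pyruvate kinase in pup 1 and nearly level with it in pup 3.

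Pgk1 makes the first ATP of the pathway and stood at 395 TPM in pup 1 against 141 TPM in pup 3. This was the reverse direction to Gapdh and Pgam1, which serve the steps before and after it. Pgam1, the phosphoglycerate mutase of brain, stood at 312 TPM and 486 TPM. Eno1, the general enolase, stood at 1540 TPM and 1200 TPM. Eno2, the neuronal enolase, stood at 177 TPM and 251 TPM, which was 10.1% of enolase TPM in pup 1 and 16.4% in pup 3, while Eno1 held 87.9% and 78.4%. In both newborn hindbrains the general enolase therefore exceeded the neuronal one. Eno3, the muscle enolase outside the list, held 1.48% and 4.41%.

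Several of these genes have near-identical copies elsewhere in the genome, counted here as other transcripts at least 90% identical over at least 300 nt. Gapdh had 159 such copies, which took 8.26% of the joint counts in pup 1 and 12.0% in pup 3. Pgk1 had 2 copies, Pgk1-rs7 and Gm5537, which took 15.6% and 20.3%. The split of reads between these genes and their copies is uncertain. Over all 32 genes copies took 1.78% and 1.97% of counts.

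Pkm, which makes pyruvate, was among the highest genes of the list, with 55600 counts and 1150 TPM in pup 1 and 39310 counts and 922 TPM in pup 3. The M1 form stood at 862 TPM in pup 1 against 479 TPM in pup 3. The M2 form stood at 288 TPM and 443 TPM. M1 was the more abundant form in both pups, by a wide margin in pup 1 and a narrow one in pup 3. The M2 share was 25.1% in pup 1 and 48.1% in pup 3, a mean of 36.6% ± 16.3 (SD, n = 2), and the pups differed by 23.0 percentage points. The deposited posterior SD, which measures how surely reads were assigned to a form, was 264 counts in pup 1 and 256 in pup 3, or 0.475% and 0.651% of the gene's count. This SD leaves out the spread between animals, and with 1 library per pup the difference has no replicate check. Pklr, the liver and red cell pyruvate kinase, had 0 counts in both pups.

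**Figure D3:**
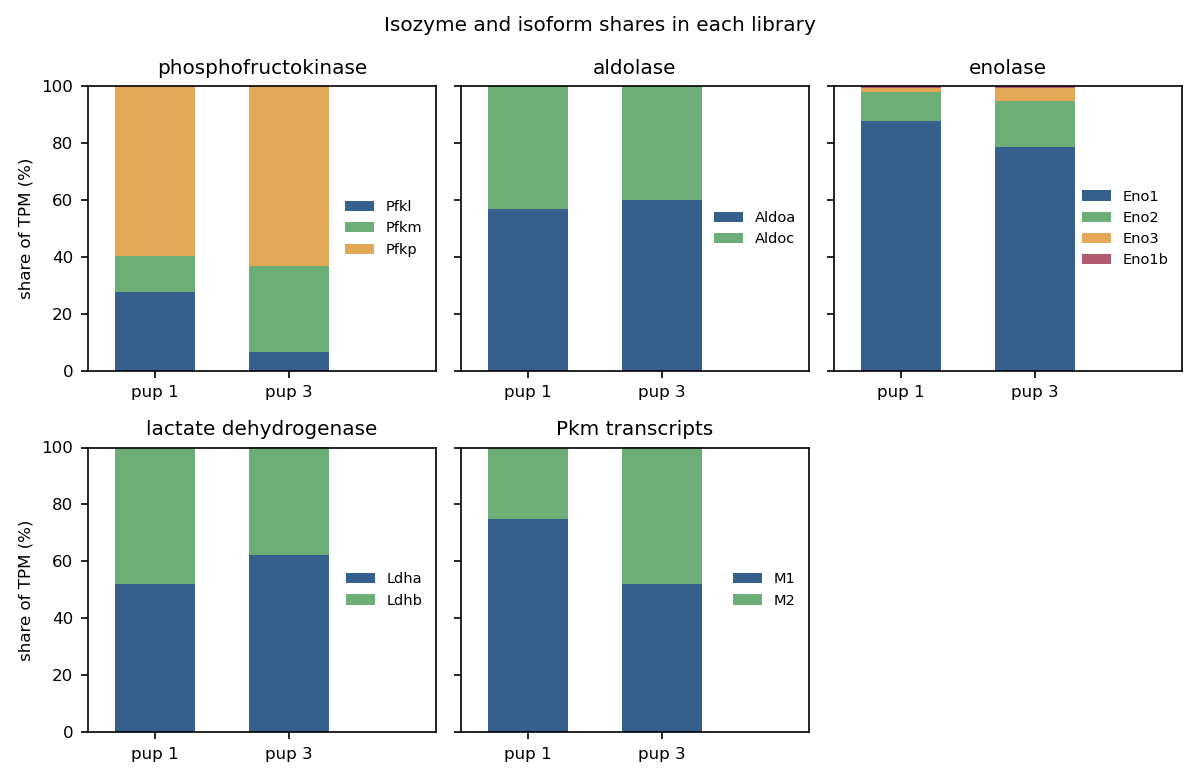
Share of TPM (vertical axis, percent) held by each isozyme gene of 4 steps and by the M1 and M2 forms of Pkm, as stacked bars for pup 1 and pup 3. The Aldoa share is 56.8% in pup 1 and 60.0% in pup 3, the Eno1 share is 87.9% and 78.4%, the Ldha share is 52.2% and 62.2%, and the Pkm M2 share is 48.1% in pup 3 against 25.1% in pup 1.

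Lactate dehydrogenase is a tetramer of A subunits, which favour making lactate, and B subunits, which favour its use. Ldha stood at 652 TPM in pup 1 against 947 TPM in pup 3. Ldhb stood at 596 TPM and 576 TPM, nearly equal. Ldha held 52.2% of lactate dehydrogenase TPM in pup 1 and 62.2% in pup 3. By counts its share was 57.0% (95% Wilson interval 56.5 to 57.5) and 67.9% (67.4 to 68.3), intervals that leave out the spread between animals.

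The transporters that move lactate, pyruvate and ketone bodies across the plasma membrane had the widest gap on the list. Slc16a1, which encodes MCT1 of endothelium and glia, had 22 counts and 0.248 TPM in pup 1 and 4016 counts and 50.8 TPM in pup 3. As a share of all nuclear counts it was 216 times higher in pup 3 (95% exact interval 142 to 345). Slc16a7, which encodes the neuronal transporter MCT2, and Slc16a8, which encodes MCT3, are not on the list and went the other way, with 323 and 150 counts in pup 1 and 0 counts of either in pup 3. Slc16a1 was thus detected in both pups, though at a low level in pup 1, and Slc16a7 and Slc16a8 in pup 1 only. Each of these genes had a mean under 30 TPM, where 58% of protein-coding genes passed the 4-fold limit used below. Endothelial and pericyte markers, of which 3 of 5 were detected in both pups, summed to 102 TPM (pup 1) and 198 TPM (pup 3), with Cldn5 and Flt1 higher in pup 3 and Kdr, Pecam1 and Pdgfrb higher in pup 1, and their part in the Slc16a1 difference was not tested. Slc16a3, which encodes MCT4, the lactate exporter of glycolytic cells, had 0 counts in both pups, which allows 0.10 TPM (pup 1) or 0.114 TPM (pup 3). Bsg, whose product basigin brings MCT1 and MCT4 to the membrane, stood at 1055 TPM and 880 TPM.

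Pyruvate enters mitochondria through a carrier made of Mpc1 and Mpc2. Mpc1 stood at 564 TPM in pup 1 against 450 TPM in pup 3. Mpc2 stood at 214 TPM and 69.3 TPM, lower than Mpc1 in each pup. On protein-coding transcripts alone Mpc2 stood at 130 TPM and 69.1 TPM, so its difference narrowed while Mpc1 still exceeded it.

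The pyruvate dehydrogenase complex summed to 772 TPM in pup 1 against 875 TPM in pup 3, a mean of 824 ± 73.1 (SD, n = 2), although its subunits differed in direction. Pdha1 and Pdhb form the E1 enzyme that decarboxylates pyruvate. Pdha1 stood at 215 TPM and 298 TPM, and Pdhb at 279 TPM and 360 TPM, so these partners kept a like ratio over all transcripts. On protein-coding transcripts alone Pdha1 stood at 185 TPM and 298 TPM with Pdhb unchanged, so the ratio was less alike. Dlat, the E2 core that makes acetyl-CoA, was lower, at 23.4 TPM and 73.4 TPM. Dld, the E3 subunit that other dehydrogenase complexes also use, ran the other way, at 169 TPM and 76.5 TPM. Pdhx, the E3-binding protein outside the list, stood at 85.5 TPM and 66.7 TPM. E1 thus exceeded the core and E3 in each pup, and Dlat and Dld were nearly level in pup 3 only.

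Pyruvate dehydrogenase kinases switch the complex off. Pdk1, a target of the hypoxia factor HIF-1, had 470 counts and 11.9 TPM in pup 1 and 0 counts in pup 3, at least 123-fold higher in pup 1 when pup 3 is set at 3 counts. In pup 1, however, 97.4% of its TPM fell on transcripts not annotated as protein-coding, and 0.305 TPM remained on coding ones. Pdk3 had 0 counts in both pups, which allows 0.154 TPM (pup 1) or 0.175 TPM (pup 3). Pdk2, outside the list, was the leading kinase in both, at 102 TPM in pup 1 against 44.8 TPM in pup 3. The phosphatase gene Pdp2, whose product reverses the kinases, had 2244 and 2271 counts.

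The first dehydrogenases of the pentose phosphate pathway showed opposite gaps. G6pdx, which encodes glucose 6-phosphate dehydrogenase, the rate-limiting entry enzyme, had 20 counts and 0.373 TPM in pup 1 and 1000 counts and 21.4 TPM in pup 3, 59.2 times more as a share of counts (95% exact interval 38.1 to 97.3). Pgd, which encodes the next NADPH-making enzyme, had 4061 counts and 92.9 TPM in pup 1 and 284 counts and 8.54 TPM in pup 3, 12.1 times more in pup 1 as a share of counts. Pgls, which encodes the lactonase between them and is not on the list, stood at 282 TPM and 377 TPM. Each pup was thus low for 1 dehydrogenase and high for the other. G6pdx overlaps exons of Ikbkg on the opposite strand, and Ikbkg went from 75 counts in pup 1 to 2062 in pup 3, so the genes were high in the same pup. The sources used here do not say whether strand was used in counting, and the part of Ikbkg reads in the G6pdx counts was not tested. The same limit touches other listed genes with exons opposite another gene's. Pfkp faces Pitrm1, with 1366 counts (pup 1) and 1.01 counts (pup 3), and Gpi1 faces Gm26762, with 854 and 4.03. Aldoa faces Fam57b, with 273 and 1710 counts, and Pfkm faces Senp1, with 1100 and 1170.

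In the non-oxidative branch, which links pentoses back to glycolysis, both listed genes were detected in each pup. Tkt, the transketolase, stood at 141 TPM in pup 1 against 138 TPM in pup 3. Taldo1, the transaldolase, stood at 122 TPM and 239 TPM. Rpe, which makes xylulose 5-phosphate and is not on the list, had 689 counts in pup 1 and 0 counts in pup 3. Rpia, which makes ribose 5-phosphate and is also outside the list, had 33 and 0. The enzymes that exchange carbon chains were therefore seen in both pups, and the epimerase and isomerase beside them in pup 1 only.

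Bnip3 encodes a mitophagy receptor of the outer mitochondrial membrane that responds to hypoxia. It stood at 122 TPM in pup 1 against 256 TPM in pup 3. Its relative Bnip3l, outside the list, stood at 359 TPM and 543 TPM, higher than Bnip3 in each pup. On protein-coding transcripts alone this order turned, with Bnip3l at 72.4 TPM and 38.7 TPM and Bnip3 at 120 TPM and 252 TPM, and Bnip3l was then higher in pup 1. Hif1a itself stood at 20.5 TPM and 27.1 TPM. Of other hypoxia-responsive genes, Egln1 stood at 2.88 TPM and 15.3 TPM, Egln3 at 8.19 TPM and 21.6 TPM, and Ndrg1 at 21.6 TPM and 34.1 TPM, each higher in pup 3. Ankrd37 had 0 counts (pup 1) and 417 counts (pup 3), Vegfa had 129 and 0, and Car9 and P4ha1 had 0 in both.

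A gene was called different between the pups when TPM + 1 differed by at least 4-fold and it had at least 50 expected counts in at least 1 library. Of 29 listed genes that could be called, 5 passed, or 17.2%, against 39.8% of protein-coding genes and 40.7% of nuclear genes. Pfkm, Slc16a1 and G6pdx were higher in pup 3, where 16.2% of protein-coding genes passed in that direction, and Pgd and Pdk1 were higher in pup 1, where 23.6% passed. With DESeq2 size factors the log2 ratio of Pfkm was 1.98, short of the limit, and that of Hk1 was -2.04, past it. The share of genes called fell with level, as the plot of difference against level shows. At a mean under 30 TPM 3 of 3 listed genes and 58% of protein-coding genes passed, and from 30 to 100 TPM 1 of 5 (Pgd) and 22% did. From 100 to 300 TPM 1 of 10 listed genes passed, which was Pfkm, against 6.85%. From 300 to 1000 TPM 0 of 7 passed, against 0.721%, and from 1000 TPM upward 0 of 4 passed, with 0 of 108 protein-coding genes. Of the called genes, Slc16a1, G6pdx and Pdk1 thus lay where most coding genes passed. A gene of low level can enter only through a library in which it is high, so nothing is read from the 3 of 3.

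**Figure D4:**
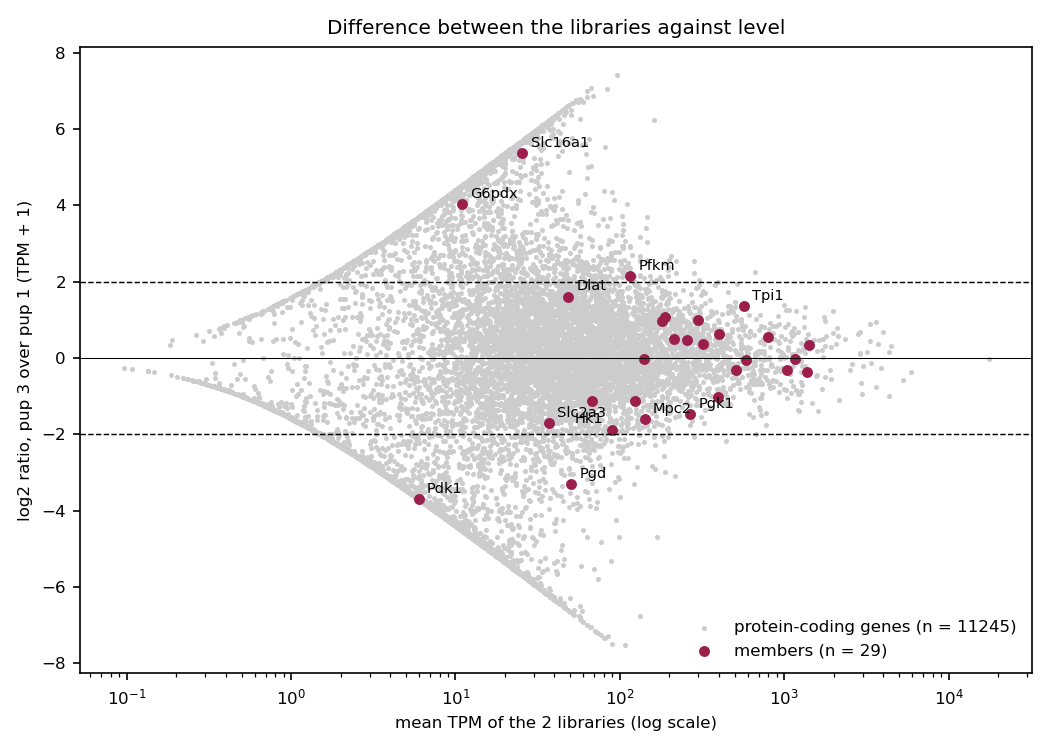
Log2 ratio of pup 3 over pup 1 on the TPM + 1 scale (vertical axis) against mean TPM on a log axis, for protein-coding genes in grey and listed genes in red, with dashed lines at 4-fold. The spread narrows with level, Slc16a1, G6pdx and Pfkm lie above the upper line, and Pgd and Pdk1 lie below the lower one.

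Across the 28 genes detected in both pups 14 were higher in each pup. The log2 ratio, positive where pup 3 was higher, had a median of 0.16, against 0.14 for protein-coding genes detected in both, and ran from -3.30 for Pgd to 5.37 for Slc16a1. The median gap in either direction was 2.02-fold, against 1.92-fold for protein-coding genes. The listed genes thus had no common direction between the pups.

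Of 24 listed genes with at least 2 transcripts and detection in both pups, 22 had the same leading transcript in both. Among all such protein-coding genes, many of lower level, 62.3% had. The exceptions were Pfkp and, by TPM but not by count, Gapdh. Mpc2 and Eno2, which also had large shares on non-coding transcripts, kept their leaders. Pfkm kept its leader, at 86.6% of TPM in pup 1 and 60.6% in pup 3.

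Of 77 further genes of these pathways and their control 76 matched a gene. Of these 76, 34 were detected in both pups, against 37.8% of protein-coding genes. Of 45 that could be called 13 passed 4-fold, 7 higher in pup 1 and 6 in pup 3, against 39.8% of protein-coding genes. Neither comparison was matched for level, so nothing is read from them. The log2 ratio had a median of 0.40 over the 34, against 0.14 for protein-coding genes detected in both. Pfkfb4, whose product makes the activator of phosphofructokinase, had 25 counts (pup 1) and 3004 counts (pup 3). Pfkfb2, whose product also makes it, went the other way, with 3957 and 767. Tigar, whose product removes that activator, had 255 and 0. Pck2, the mitochondrial enzyme that makes phosphoenolpyruvate, ran from 41.8 TPM in pup 1 to 1.02 TPM in pup 3, and Gpd1l from 37.5 TPM to 3.16 TPM. Bpgm, which makes bisphosphoglycerate in red cells, stood at 83.5 TPM and 135 TPM. It was higher in the pup with the higher globin level. The red cell marker Alas2 went the other way, with 909 counts (pup 1) and 0 counts (pup 3). The part of red cells in the Bpgm level was not tested.

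The listed genes are spread over the genome, with 6 on chromosome 6, 5 on chromosome 7 and 4 on the X chromosome. Eno2 and Tpi1 lie 40.9 kb apart on chromosome 6 and Gapdh lies a further 347 kb away, and all 3 were higher in pup 3. Slc2a3 and Ldhb, also on chromosome 6, were higher in pup 1. On the X chromosome Pgk1 was higher in pup 1 and Pdha1 and G6pdx in pup 3. On neither chromosome did all detected genes of the list share a direction.

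Many glycolytic promoters are known to hold the core of the hypoxia response element, ACGTG. It was counted on both strands, where it reads CACGT on the other, in RefSeq promoter windows of 300 nt on GRCm38.p6. The palindrome CACGTG, also known as an E-box, matches on both strands. For 31 of the 32 genes a window was found, and 17 of their 44 windows held a match, or 38.6%, against 19.6% of all 32851 windows and 25.4% of those of coding genes detected in both pups. The 44 windows include those of Hk2, Slc16a3, Pdk3 and Pdk1, which were not detected in both pups, and some windows of a gene overlap. By gene, 15 of 31 held a match, or 48.4%, against 21.8% of all genes and 30.1% of coding genes detected in both pups. The 250 nt upstream of the start are shown for Ldha, the window with 5 matches, and for Slc16a3, which held 2 matches and had 0 counts in both pups. Capitals mark the matches, and both genes lie on the plus strand, at chr7:46845554-46845803 and chr11:120948817-120949066.
Ldha upstream: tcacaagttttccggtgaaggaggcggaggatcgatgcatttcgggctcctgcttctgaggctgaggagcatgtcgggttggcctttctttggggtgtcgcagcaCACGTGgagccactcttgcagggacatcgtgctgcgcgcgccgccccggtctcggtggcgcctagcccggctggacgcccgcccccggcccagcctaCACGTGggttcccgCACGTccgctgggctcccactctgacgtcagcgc
Slc16a3 upstream: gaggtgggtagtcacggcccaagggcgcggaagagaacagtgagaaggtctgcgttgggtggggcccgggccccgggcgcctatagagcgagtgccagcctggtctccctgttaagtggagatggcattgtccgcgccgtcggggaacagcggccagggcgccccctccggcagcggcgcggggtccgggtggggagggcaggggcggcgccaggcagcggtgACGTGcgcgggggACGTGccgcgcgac
A match describes these letters and not a bound site. The Ldhb window held 0 matches, and Ldhb had 596 TPM in pup 1 against 576 TPM in pup 3. Ldha, with its window of 5 matches, had 652 TPM and 947 TPM, and Slc16a3 with its 2 matches had 0 counts. Whether matches go with level over the listed genes was not tested.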

How the data were processed

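RNA-seq of 2 newborn mouse hindbrains was analysed from gene and transcript tables. The authors deposited, per the file headers, expected counts, TPM, FPKM and the percent of each isoform in RSEM layout on mm10 with GENCODE M4. Neither labels nor headers say if counting was strand-specific. The deposited expected counts were not rounded for levels, shares and folds. They were rounded to whole counts for the scaling factors and the count intervals. TPM was rescaled over nuclear genes, which drops spike-ins and mitochondrial genes. Of 43346 mouse gene identifiers, 42462 matched GENCODE M21, on the same assembly, which gave symbols, exons and positions. Detection meant 5 expected counts. A difference meant 4-fold on TPM + 1 with at least 50 counts in 1 library. Pkm forms were assigned by exon. Copies came from BLAST 2.17.0 of transcript sequences. Scaling factors came from edgeR 4.0.16 and DESeq2 1.42.0, and the rest ran in Python 3.11.15 with pandas 2.3.3, scipy 1.17.1 and statsmodels 0.14.6.

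The listed genes and the other lists were chosen with earlier results of these data known. Every listed gene is described, and of the wider pathway list an isozyme or regulator of a step may be named whatever its values. Protein sequences were not used here. A gene of the wider list is not reported here.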

Additional observations from a re-analysis of the deposited data

How the results depend on the processing

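The 4-fold limit called 5 of the 29 genes tested, and a 2-fold limit called 15, against 61.9% of protein-coding genes. With protein-coding transcripts only, an alternative chosen after seeing the data, the mean Pfkm share was 47.1% in place of 21.3% and the mean Pfkp share 26.2% in place of 61.4%. By expected count the Pfkp share was 49.3% and the Aldoa share 53.2% in place of 58.4%. With listed genes only, the Aldoa share of aldolase and the Slc2a3 share of glucose uptake became 100% by construction. Of the 5 called genes 3 stayed past 4-fold under all 7 scalings. Pfkm fell to a log2 ratio of 1.98 with DESeq2 size factors, Pdk1 to -0.38 on coding transcripts, and Hk1 passed the limit at -2.02 (TMM) and -2.04 (DESeq2). The sign differed under at least 1 scaling for 4 genes, among them Pfkp, at -3.14 on coding transcripts. Recomputed values that answer a comparison stayed within the spread or limit used in 72 cases and moved beyond it in the 7 given first. For a share, a value with either pup left out lies within the SD of the 2 libraries by construction. Some other settings repeat the main value, so the 72 cases do not measure stability. No paired analysis was possible because both libraries belong to 1 group. With either pup left out, single values remain, and the M2 share ran from 25.1% to 48.1%, the Slc16a1 share from 2.1% to 100% and the Slc2a3 share from 10.3% to 48.3%. With 1 library per pup, no value has a replicate within an animal.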
